A study of Mus musculus with 17 samples.

Results

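Secretory proteins enter the endoplasmic reticulum (ER) and leave it in coated vesicles, and the genes that build this route are the subject here. Chromatin accessibility at these genes was read from the assay for transposase accessible chromatin (ATAC-seq), in which a transposase cuts open chromatin and tags it for sequencing. Members were all accessible regions within 50000 bp of the transcription start of a gene whose symbol began with Sec, Ssr, Srp, Spcs, Pdia or Tmed and a digit, with Copa, Copb, Cope, Copg or Copz, or with Stt3, or was Rpn1, Rpn2, Dad1 or Hyou1. The rule used symbols and distances and no accessibility value. It gave 193 of the 66177 regions in the table, at 66 genes. Of these, 71 regions at 61 genes were annotated as promoter and the other 122, at 47 genes, are called distal. Among the distal regions, 50 lay inside their own gene, 57 in no coding gene and 15 in another coding gene only. Pdia5, Sec61a1, Sec61b, Ssr4 and Sec14l3 had distal regions alone. Another 39 regions matched by name but lay beyond 50000 bp and were left out. Sec1, a fucosyltransferase gene, and the Sec14l genes, which encode lipid transfer proteins, match by name without a role in this route and are kept apart as other names.

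Naive B cells (nB, B220+ GL7- Fas-) came from lymph nodes of unimmunized male mice. Germinal center B cells (GCB, B220+ GL7+ Fas+ PE+) came from lymph nodes and bone marrow plasma cells (BMPC, CD138+) from marrow, both 30 days after immunization with phycoerythrin in complete Freund's adjuvant (PE-CFA), in young adult mice of the background B6;129S4-Dnmt3atm3.1Enl Dnmt3btm5.1Enl/Mmnc. All groups, controls included, carried Dnmt3afl/fl Dnmt3bfl/fl. Dnmt3-deficient mice (KO) also carried 1 copy of a Cre allele active in the B lineage, which their Dnmt3-sufficient littermates (C) lacked. The C libraries number 3 in nB, 2 in GCB and 3 in BMPC, and the KO libraries 2, 4 and 2 in the same order. Each nB and BMPC library was from 1 mouse, whereas each GCB library pooled more than 1 mouse and pools of both sexes were used. The C pools were F2 (female) and M1 (male), and the KO pools F1, F2 and F3 (female) and M1 (male). Sex was therefore not balanced between genotypes in GCB. All BMPC libraries were female, so for nB and BMPC the effects of cell type, sex, organ and immunization cannot be told apart. GCB differed from nB also in immunization, pooling and the mix of sexes, and from BMPC in organ, pooling and the mix of sexes. Cell type cannot be told apart from these in the GCB comparisons either. Another KO BMPC sample named by the labels was not analysed here, and the deletion itself was not checked here.

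Values are reads in a region per 1000000 reads in all regions of the library (RPPM). Libraries held between 4104875 and 6079018 such reads (nB), 907959 and 2280954 (GCB) or 5357687 and 8232313 (BMPC), so GCB values are the least precise. A count of 3 reads, taken as the floor, was worth from 0.364 to 3.30 RPPM, and this floor covers counting error only. Regions of the mitochondrial genome took from 7.43% to 10.1% of reads in GCB and from 2.56% to 4.59% elsewhere. Summed accessibility around 7 B cell genes was 1162 to 1280 RPPM in nB, 747 to 887 RPPM in GCB and 419 to 463 RPPM in BMPC. Around 5 of 6 plasma cell genes with a region it was 637 to 675, 543 to 610 and 981 to 1055 RPPM, and around 4 of 5 GCB genes 259 to 285, 472 to 589 and 280 to 296 RPPM. For other cells, 4 of 6 myeloid genes summed to 69.5 to 82.6, 36.1 to 71.9 and 90.5 to 101 RPPM, 2 of 4 erythroid genes to 43.9 to 63.0, 36.3 to 47.8 and 68.4 to 80.3 RPPM, and 4 of 6 T cell genes to 95.5 to 111, 43.6 to 61.4 and 73.9 to 115 RPPM. The single NK cell gene with a region, of 2 listed, summed to 442 to 464, 388 to 526 and 434 to 474 RPPM. The part of these other cells, of depth and of mitochondrial reads in the results was not tested. Fewer cells with an open region and less opening in each cell cannot be told apart in these pooled cells.

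A ribosome that starts to make a secreted or membrane protein is held by the signal recognition particle (SRP) and docked on the Sec61 translocon, with the TRAP complex (Ssr genes) beside the channel. Signal peptidase (Spcs and Sec11 genes) removes the signal peptide, the oligosaccharyltransferase (Stt3, Rpn and Dad1) adds N-linked sugars, and disulfide isomerases (Pdia genes) and the chaperone Hyou1 fold the chain. COPII coats (Sec13, Sec23, Sec24, Sec31 and the scaffold Sec16) carry folded cargo to the Golgi with the help of p24 cargo receptors (Tmed genes), Sec22 SNAREs help vesicles to fuse, and COPI coats (Cop genes) bring material back. Plasma cells expand their ER to release antibody, and the transcription factor Xbp1 is known to raise many of these genes.

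The 8 sequences below are examples of regions described in the results, with promoters and then distal regions that changed between cell types, and last the Ssr1 region called between genotypes. Each is the mm9 reference (NCBIM37) on the strand of the gene, 5′ to 3′, taken from within the region and covering no annotated exon. Capitals mark, on either strand, the short ER stress element end CCACG, the basic leucine zipper core ACGTG, the box CCAAT, the ETS family core GGAAGT and the IRF family core GAAAC. Distances here and below are in bp from the annotated start, negative upstream.
Sec24d at the start, chr3:122970164-122970413 (plus strand): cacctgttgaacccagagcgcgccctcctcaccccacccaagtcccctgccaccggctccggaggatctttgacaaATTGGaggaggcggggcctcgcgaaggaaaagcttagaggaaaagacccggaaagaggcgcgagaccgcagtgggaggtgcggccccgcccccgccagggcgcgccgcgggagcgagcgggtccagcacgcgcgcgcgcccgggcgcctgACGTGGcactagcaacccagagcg
Sec24a at +2089, chr11:51574712-51575011 (minus strand): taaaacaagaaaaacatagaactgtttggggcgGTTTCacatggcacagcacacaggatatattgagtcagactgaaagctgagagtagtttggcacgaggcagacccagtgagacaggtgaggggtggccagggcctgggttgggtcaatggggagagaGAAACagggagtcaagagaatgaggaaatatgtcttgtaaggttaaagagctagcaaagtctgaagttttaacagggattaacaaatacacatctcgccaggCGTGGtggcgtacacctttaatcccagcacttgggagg
Pdia4 at -785, chr6:47764297-47764502 (minus strand): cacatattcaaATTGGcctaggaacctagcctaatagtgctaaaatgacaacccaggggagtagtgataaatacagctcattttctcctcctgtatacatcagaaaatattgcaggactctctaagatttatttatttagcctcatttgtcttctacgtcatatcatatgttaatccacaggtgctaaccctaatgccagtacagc
Hyou1 at -796, chr9:44186439-44186738 (plus strand): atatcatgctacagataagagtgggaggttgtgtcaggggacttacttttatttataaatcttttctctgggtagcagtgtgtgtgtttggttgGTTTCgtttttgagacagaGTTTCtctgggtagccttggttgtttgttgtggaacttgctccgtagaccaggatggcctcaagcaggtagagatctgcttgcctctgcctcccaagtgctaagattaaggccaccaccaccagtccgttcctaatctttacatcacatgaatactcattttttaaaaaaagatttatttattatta
Sec22a at +44171, chr16:35317073-35317372 (minus strand): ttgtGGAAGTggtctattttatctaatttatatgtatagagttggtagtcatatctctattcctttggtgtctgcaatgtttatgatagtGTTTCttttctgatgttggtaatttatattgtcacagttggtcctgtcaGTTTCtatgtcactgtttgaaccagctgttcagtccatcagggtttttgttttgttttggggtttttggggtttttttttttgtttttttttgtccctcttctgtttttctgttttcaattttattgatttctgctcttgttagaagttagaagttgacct
Copb1 at +25860, chr7:121371696-121371995 (minus strand): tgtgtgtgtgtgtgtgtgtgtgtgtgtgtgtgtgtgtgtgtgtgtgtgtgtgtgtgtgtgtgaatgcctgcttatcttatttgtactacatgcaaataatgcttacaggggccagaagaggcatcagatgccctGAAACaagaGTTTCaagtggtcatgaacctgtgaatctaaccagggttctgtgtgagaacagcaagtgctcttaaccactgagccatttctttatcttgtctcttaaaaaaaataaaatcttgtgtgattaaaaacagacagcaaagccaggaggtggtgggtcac
Stt3b at -11944, chr9:115231693-115231992 (minus strand): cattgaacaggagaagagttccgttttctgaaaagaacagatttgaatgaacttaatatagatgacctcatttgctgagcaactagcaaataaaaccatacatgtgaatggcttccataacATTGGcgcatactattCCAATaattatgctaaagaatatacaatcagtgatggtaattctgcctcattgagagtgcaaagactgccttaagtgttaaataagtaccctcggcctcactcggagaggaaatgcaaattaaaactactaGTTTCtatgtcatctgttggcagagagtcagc
Ssr1 at -15677, chr13:38102172-38102471 (minus strand): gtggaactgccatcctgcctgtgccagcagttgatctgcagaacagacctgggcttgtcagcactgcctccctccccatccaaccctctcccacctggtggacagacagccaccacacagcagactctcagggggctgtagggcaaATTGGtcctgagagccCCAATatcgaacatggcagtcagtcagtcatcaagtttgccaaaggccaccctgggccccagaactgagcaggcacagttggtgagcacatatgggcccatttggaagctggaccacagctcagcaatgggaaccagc
The Sec24d promoter held 1 TGACGT that overlapped 1 match to ACGTG, which in turn overlapped 1 match to CCACG. The Pdia4 sequence also held 1 TGACGT, on the opposite strand and not in capitals. The Sec24a, Hyou1, Sec22a and Copb1 sequences each held 2 matches to GAAAC, and the Stt3b and Ssr1 sequences 2 matches to CCAAT. A match is a description of the letters and shows no binding.

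From nB to BMPC in C mice, 10 of the 71 promoters rose and 1 fell (14.1% and 1.41%). Of all promoters in the table, 11.2% rose and 6.41% fell. Here and below, called regions passed 2-fold on log2(RPPM + 1) and an adjusted p of 0.01 from limma with Benjamini-Hochberg adjustment over all regions. The median log2 fold change was 0.17 for the 71 promoters and 0.10 for all promoters. The COPII coat gene Sec24d, the signal peptidase gene Spcs2, the COPI gene Copz2 and the folding genes Pdia4 and Hyou1 were among those with a rising region. By annotation, 69 of the 71 were promoters of the gene itself, and 12 were assigned to several genes. The rising regions of Spcs2 and Sec24a lay nearest to the starts of these genes but carried the promoter label of another gene. Most promoters were open in these cells, and 58 of the 71 averaged at least 10 RPPM over all libraries, not corrected for width. The same count was not made over all promoters. Over the annotated start the median level was 52.0 RPPM for members and 37.8 RPPM for all promoters, and beside it 6.69 and 6.62 RPPM. The plot of called promoters by library shows all 11.

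**Figure D1:**
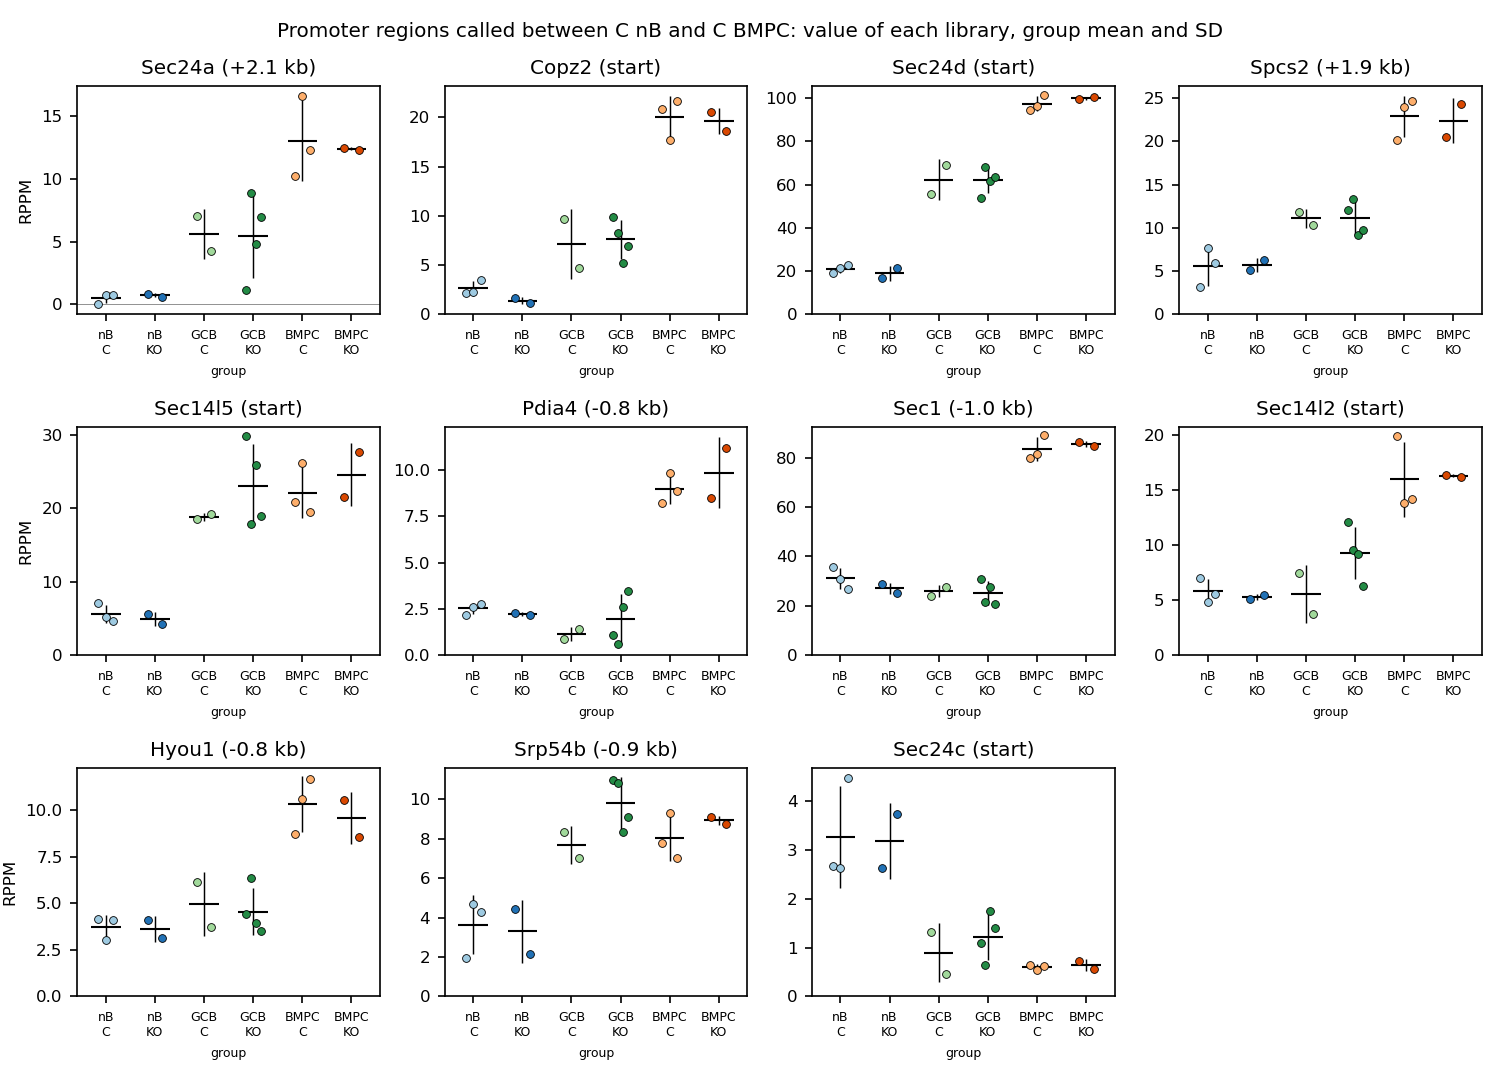
Accessibility (RPPM, vertical axis, linear) in every library of the 6 groups at the 11 promoter regions called between C nB and C BMPC. Points are libraries, and bars give the mean and SD. Sec24d rose from 21.1 RPPM in nB to 97.3 RPPM in BMPC, and only the second Sec24c region fell.

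Promoter regions over and beside the annotated start are given apart. The 59 regions that covered the annotated start had a median width of 1151 bp and a median level of 52.0 RPPM, and from nB to BMPC 4 of them rose and 1 fell (8.47% called, against 13.1% of all 11348 promoters over a start). The 12 regions beside the start had a median width of 371.5 bp and a median of 6.69 RPPM, and 6 rose and 0 fell by limma (50% called, against 34.7% of the 2984 of all such promoters). At Pdia4, Hyou1, Spcs2, Sec24a and Srp54b the region that rose was one of those beside the start.

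Sec24d encodes a COPII subunit that selects cargo, and it had the highest level of the promoters that rose. Its promoter (chr3:122969797-122971317) read 19.0, 21.7 and 22.7 RPPM in C nB, 55.4 and 68.9 RPPM in C GCB, and 94.4, 96.2 and 101 RPPM in C BMPC. The 3 cell types did not overlap, with GCB in between. The log2 fold change from nB was 1.51 (SE 0.13, limma adjusted p = 7.6e-10) to GCB and 2.15 (SE 0.12, limma adjusted p = 1.7e-14) to BMPC. From GCB to BMPC it was 0.65 (SE 0.13), short of the call. Its paralog Sec24a had 2 promoter regions over annotated starts and a small one at +2089. A region over a Sec24a start averaged 52.0, 64.1 and 88.5 RPPM in C nB, GCB and BMPC and was not called (0.75 from nB to BMPC on the log2 scale). The other region over a start was not called from nB to BMPC either. The small region at +2089 (chr11:51574678-51575046) read 0, 0.754 and 0.744 RPPM in C nB, 7.04 and 4.22 RPPM in C GCB, and 10.3, 16.6 and 12.3 RPPM in C BMPC. It was near the floor in nB, and again no library of a later cell type reached down to the nB range. The log2 fold changes were 2.16 (SE 0.44, limma adjusted p = 0.00023) to GCB and 3.25 (SE 0.39, limma adjusted p = 4.8e-08) to BMPC.

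Sec24c showed a different picture. Its main promoter (chr14:21493031-21494329) averaged 40.5 ± 3.53 RPPM (SD, n = 3) in C nB, 34.2 ± 6.01 RPPM (SD, n = 2) in C GCB and 68.3 ± 6.27 RPPM (SD, n = 3) in C BMPC, a log2 fold change of 0.74 (SE 0.12) from nB to BMPC that fell short of 2-fold. A second, small region that the table places at a Sec24c start (chr14:21508161-21508515) read 2.68, 2.64 and 4.47 RPPM in C nB, 1.32 and 0.468 RPPM in C GCB, and 0.65, 0.547 and 0.623 RPPM in C BMPC. It fell by 1.38 (SE 0.32, limma adjusted p = 0.00054) on the log2 scale, down to 3 to 5 reads per BMPC library. Sec16a, the scaffold of ER exit sites, had the most accessible COPII promoter per length (79.8 RPPM per kb over all libraries), and it read 125 to 137 RPPM in C nB and 128 to 137 RPPM in C BMPC, with no call. In all, 16 promoter regions at 12 COPII genes gave 2 higher and 1 lower, with a median log2 fold change of 0.11.

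Copz2 encodes a less common form of the zeta subunit of COPI. Its promoter (chr11:96710897-96712107), which the table also assigns to 1 other gene, read 2.19, 2.26 and 3.54 RPPM in C nB, 9.68 and 4.68 RPPM in C GCB, and 20.8, 17.7 and 21.6 RPPM in C BMPC. Accessibility rose at each step without overlap, by 1.11 (SE 0.29, limma adjusted p = 0.0027) from nB to GCB, by 1.43 (SE 0.29, limma adjusted p = 0.00015) from GCB to BMPC and by 2.54 (SE 0.26, limma adjusted p = 2.4e-09) from nB to BMPC, on the log2 scale. Copz1, which encodes the common form, had the most accessible COPI promoter per length (84.3 RPPM per kb, against 8.0 for Copz2). It averaged 87.5 ± 5.25 RPPM (SD, n = 3) in C nB and 77.3 ± 1.14 RPPM (SD, n = 3) in C BMPC, a log2 fold change of -0.17 that was not called. Among 6 COPI promoters, Copz2 was the only call, and the median was -0.10.

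Of the folding genes, Pdia4 encodes a protein disulfide isomerase and Hyou1 a large chaperone of the Hsp70 kind. The Pdia4 region at -785 (chr6:47764297-47764502) read 2.19, 2.64 and 2.79 RPPM in C nB, 0.88 and 1.41 RPPM in C GCB, and 8.19, 9.85 and 8.88 RPPM in C BMPC. GCB lay about at the floor, and BMPC above both other cell types (1.49 from nB, SE 0.32, limma adjusted p = 0.00024, and 2.23 from GCB, SE 0.36, limma adjusted p = 8.3e-06). The region over the Pdia4 start averaged 86.5, 72.6 and 75.7 RPPM and was not called. The Hyou1 region at -796 (chr9:44186403-44186776) read 4.14, 3.01 and 4.09 RPPM in C nB, 6.16 and 3.75 RPPM in C GCB, and 8.71, 10.6 and 11.7 RPPM in C BMPC. BMPC again stood above the rest (log2 fold change from nB 1.25, SE 0.26, limma adjusted p = 0.00014), while the region over the Hyou1 start averaged 61.4, 37.8 and 66.0 RPPM with no call. With a pseudocount of 5 in place of 1 RPPM the log2 fold changes from nB fell under 1 and lost the call, at 0.89 for Pdia4 and 0.81 for Hyou1, as did Sec14l2 at 0.94 and the second Sec24c region at -0.55.

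Signal peptidase gave 1 call among 5 promoter regions. At Spcs2, a subunit without the catalytic site, the region at +1879 (chr7:107004861-107005513) read 3.17, 7.72 and 5.96 RPPM in C nB, 11.9 and 10.3 RPPM in C GCB, and 20.2, 23.9 and 24.6 RPPM in C BMPC. The 3 cell types did not overlap, and the log2 fold change between nB and BMPC was 1.91 (SE 0.23, limma adjusted p = 4.0e-08). The SRP genes had 8 promoter regions with a median of 0.30, and the region of Srp54b at -901, a copy of the gene for the subunit that binds signal peptides, was the only call. It read 1.95, 4.71 and 4.28 RPPM in C nB, 8.36 and 7.03 RPPM in C GCB, and 7.80, 9.31 and 7.01 RPPM in C BMPC (log2 fold change from nB to BMPC 1.01, SE 0.26, limma adjusted p = 0.0018). The nB range lay below the others. This value sits at the limit, and it lost the call with a pseudocount of 5 RPPM (0.60), with quantile normalization (1.0, limma adjusted p = 0.0022, just under 2-fold), without the first C nB library (0.71) and without the second C BMPC library (0.91). Srp54a at -1150 averaged 3.99, 9.29 and 8.80 RPPM, with a call from nB to GCB (1.05, SE 0.29, limma adjusted p = 0.0043). Srp54a and Srp54b are near-identical copies, so reads may be split between them and both values are uncertain.

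By limma, 0 of 4 Sec61 translocon promoters (median log2 fold change 0.14), 0 of 3 TRAP promoters (0.26), 0 of 5 oligosaccharyltransferase promoters (-0.11) and 0 of 3 Sec22 promoters (0.11) were called from nB to BMPC. Stt3a, a catalytic subunit of the oligosaccharyltransferase, had the most accessible of these promoters per length (86.2 RPPM per kb), and Rpn1, a ribophorin, the least of its complex (30.0 RPPM per kb). The other names gave 3 more calls. Sec1 at -1004 read 35.6, 31.1 and 26.8 RPPM in C nB, 24.2 and 27.6 RPPM in C GCB, and 79.7, 81.6 and 88.9 RPPM in C BMPC (1.40 from nB, SE 0.14, limma adjusted p = 1.8e-09). BMPC stood well apart there. Sec14l5 averaged 5.66 ± 1.25, 18.8 ± 0.518 and 22.1 ± 3.50 RPPM (1.80 from nB to BMPC, SE 0.20, limma adjusted p = 1.8e-08) and Sec14l2 5.85 ± 1.11, 5.61 ± 2.64 and 16.0 ± 3.4 RPPM (1.30, SE 0.24, limma adjusted p = 4.6e-05), in C nB (n = 3), C GCB (n = 2) and C BMPC (n = 3). The plot by role sets every region side by side.

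**Figure D2:**
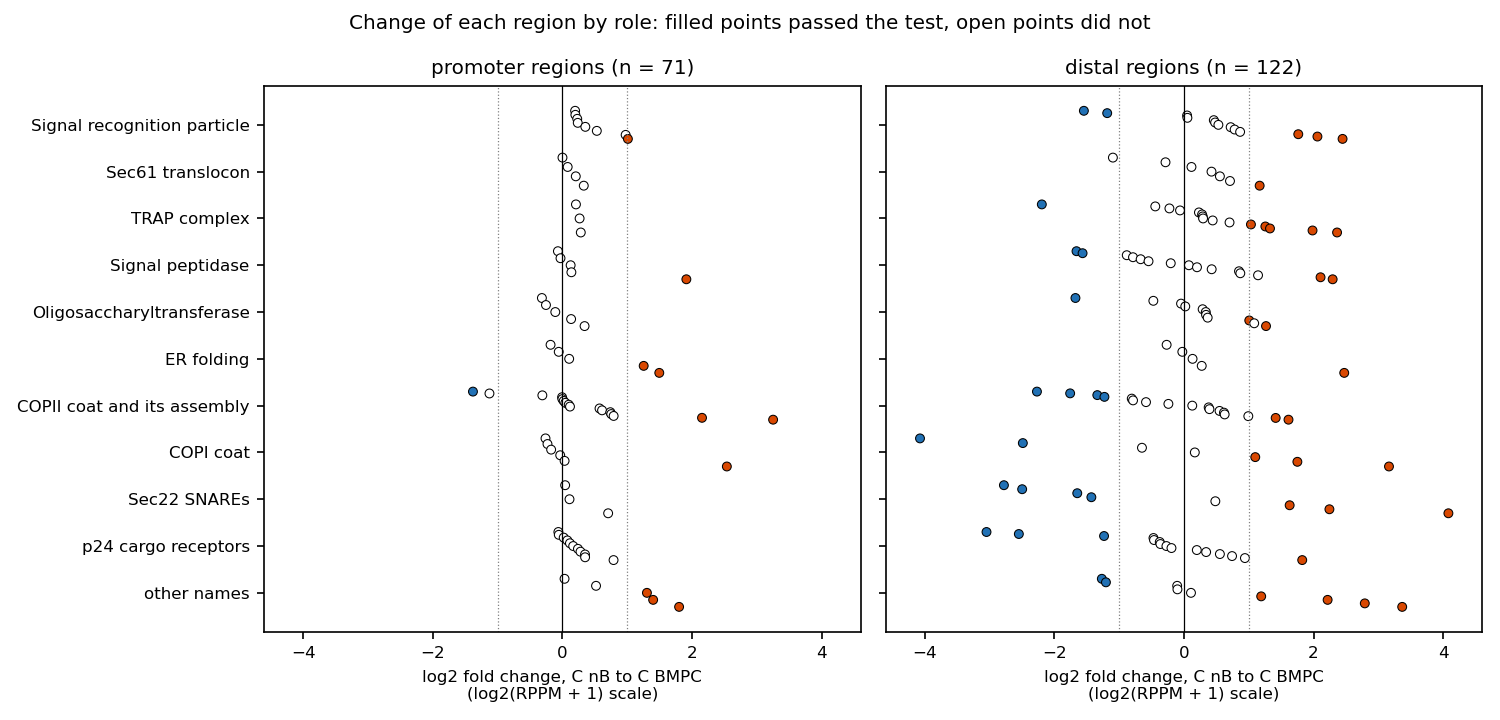
Log2 fold change from C nB to C BMPC on log2(RPPM + 1) (horizontal axis) of each of the 71 promoter and 122 distal regions, in rows by role. Orange points were called higher, blue lower and open points not called, and dotted lines mark -1 and 1. Promoters cluster near 0 with 10 calls to the right and 1 to the left, whereas distal regions spread both ways.

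From nB to GCB in C mice, 6 promoters rose and 4 fell (8.45% and 5.63%, against 8.88% and 6.99% of all promoters). The median log2 fold change was -0.21 for the members and -0.18 for all promoters. From GCB to BMPC, 9 rose and 1 fell (12.7% and 1.41%, against 11.7% and 7.33% of all promoters), with medians of 0.43 and 0.30. The promoter that rose most on entry to GCB and fell most after it belonged to a p24 gene, Tmed6. Its region at -309 (chr8:109589854-109590461) read 5.12, 2.64 and 3.16 RPPM in C nB, 22.4 and 20.6 RPPM in C GCB, and 3.51, 4.74 and 2.18 RPPM in C BMPC. GCB stood alone (2.31 from nB, SE 0.33, limma adjusted p = 2.0e-06, and -2.37 to BMPC, SE 0.33, limma adjusted p = 8.2e-07), and KO GCB, at 12.1, 26.7, 21.0 and 30.1 RPPM, also lay above every nB and BMPC library. Sec63, which works with the translocon to pull chains in, read 51.2, 44.3 and 50.4 RPPM in C nB, 26.4 and 31.9 RPPM in C GCB, and 63.5, 58.2 and 62.1 RPPM in C BMPC. It was lowest in GCB and was called from GCB to BMPC (1.05, SE 0.15, limma adjusted p = 1.2e-06).

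The other p24 promoters that were called went the opposite way to Tmed6, and they are named here after their values were seen. Tmed2 over its start (chr5:124990368-124991654) read 47.5, 46.5 and 54.2 RPPM in C nB, 21.6 and 25.8 RPPM in C GCB, and 62.0, 67.5 and 59.8 RPPM in C BMPC. Accessibility dipped in GCB (-1.03 from nB, SE 0.16, limma adjusted p = 6.9e-06, and 1.38 to BMPC, SE 0.16, limma adjusted p = 4.0e-08). A small Tmed2 region at -1632 read 6.82, 5.09 and 5.96 RPPM in C nB, 1.76 and 1.87 RPPM in C GCB, and 6.24, 8.39 and 7.01 RPPM in C BMPC, with calls at both steps (-1.30 and 1.54). Without the first C GCB library its drop kept a log2 fold change of -1.27 but lost the call (limma adjusted p = 0.011). Tmed4 read 34.8, 34.1 and 35.5 RPPM in C nB, 13.2 and 19.2 RPPM in C GCB, and 33.2, 41.8 and 31.8 RPPM in C BMPC, again called at both steps (-1.08 and 1.1). Tmed9 read 30.7, 28.6 and 30.0 RPPM, then 15.8 and 17.3 RPPM, then 36.4, 39.8 and 38.5 RPPM, and was called from GCB to BMPC (1.16, SE 0.19, limma adjusted p = 1.4e-05). In these 4 regions every GCB library of C mice lay below every nB and BMPC library of C mice. Such separation was common among the members. Of the 71 promoter members, 37 had every C GCB library below every C nB library. In 52 of them every C BMPC library lay above every C GCB library. The share over all promoters was not counted. Over the 11 p24 promoter regions at 10 genes, 1 rose and 3 fell from nB to GCB (median -0.64), 4 rose and 1 fell from GCB to BMPC (median 0.84), and 0 were called from nB to BMPC by limma (median 0.17). Quantile normalization left 1 higher and 1 lower (median -0.44) at the first step and 2 higher and 1 lower (median 0.66) at the second. GCB libraries were also the shallowest and carried the most mitochondrial reads, as given above.

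Distal regions moved in both directions. From nB to BMPC in C mice, 27 of 122 rose and 21 fell (22.1% and 17.2%), against 20.2% and 21.8% of all 41449 distal regions. The median log2 fold change was 0.28 for the members and 0.01 for all distal regions. From nB to GCB 22 rose and 5 fell (18% and 4.1%, against 15.2% and 8.33%), with medians of 0.31 and 0.15, and from GCB to BMPC 12 rose and 27 fell (9.84% and 22.1%, against 11.7% and 20.7%), with medians of -0.05 and -0.15. These splits depend on scaling. Quantile normalization gave 17 higher and 7 lower from nB to GCB and 23 higher and 20 lower from GCB to BMPC, and it moved the median of all regions from 0.05 to -0.06 and from -0.06 to 0.09. Of the 47 genes with a distal region, 18 had one that rose from nB to BMPC, 12 had one that fell and 2 of these had both. Across all comparisons of cell types in C and KO mice, 77 distal regions and 22 promoters were called at least once (63.1% and 31%, beside 64.5% and 37.7% of all distal regions and promoters), and 45 and 49 were not.

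**Figure D3:**
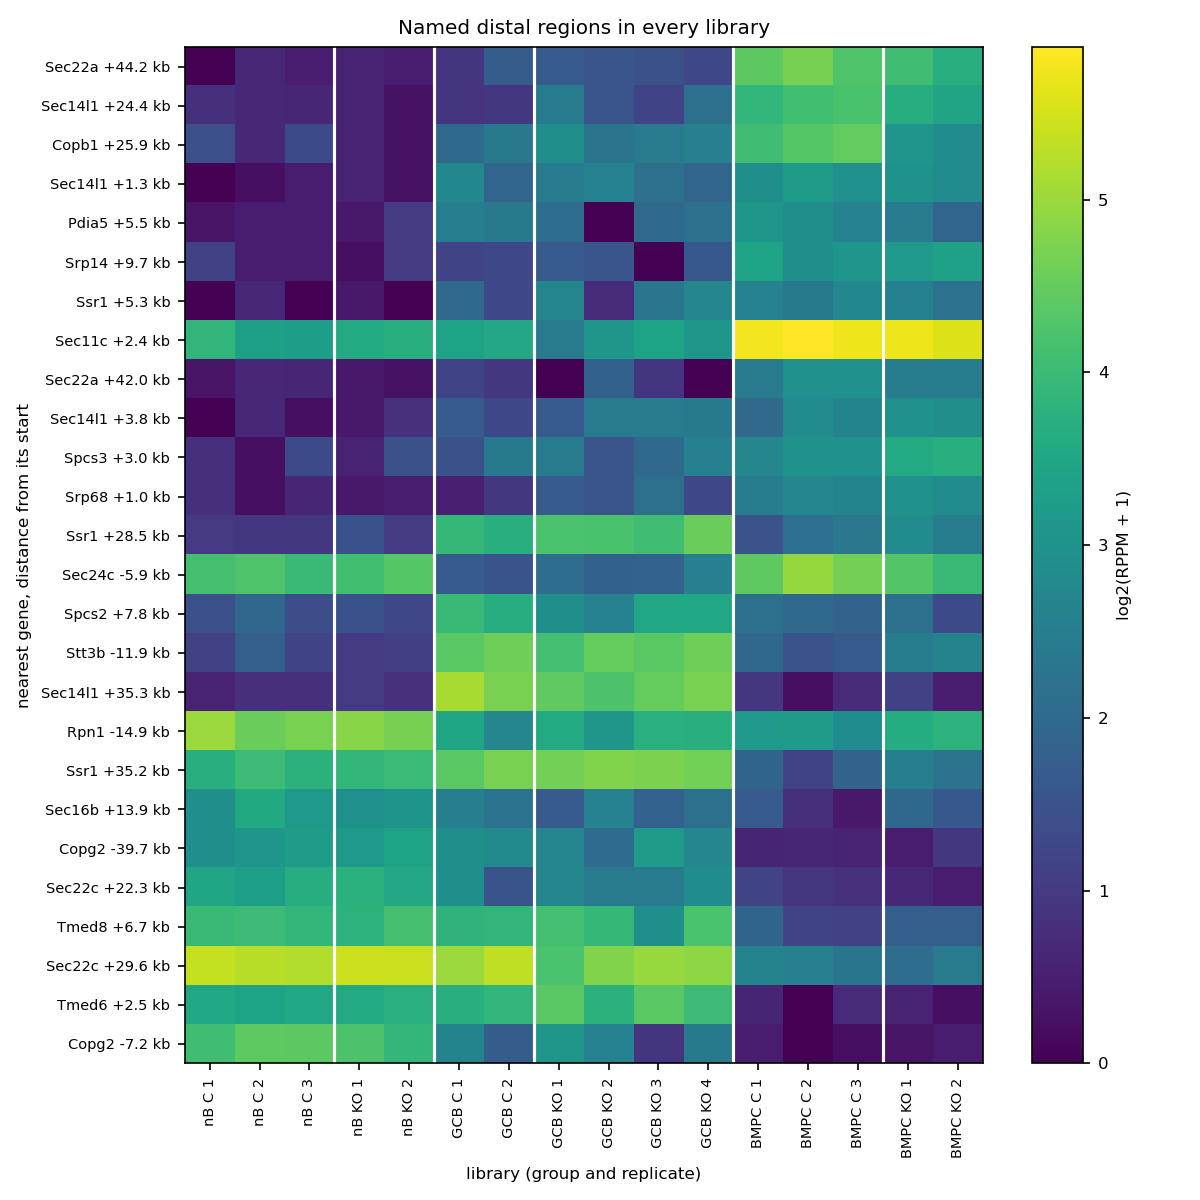
Accessibility as log2(RPPM + 1) (color scale) of the named distal regions (rows, gene and distance from the start) in each of the 16 libraries (columns, by group). Brighter cells are more accessible, as for Sec22a at +44171 in BMPC, Sec14l1 at +35264 in GCB and Copg2 at -7236 in nB.

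From nB to BMPC in C mice, the largest gain among the members lay in Sec22a, which encodes a SNARE-like protein of the ER. Its region at +44171, inside the gene (chr16:35316773-35317673), read 0, 0.565 and 0.372 RPPM in C nB, 0.88 and 2.34 RPPM in C GCB, and 20.2, 24.6 and 18.2 RPPM in C BMPC. All nB libraries were at or below the floor, and BMPC lay apart from both other cell types (4.08 from nB, SE 0.29, limma adjusted p = 3.4e-12). A neighbor at +41985 averaged 0.456, 1.13 and 5.96 RPPM (2.25, SE 0.38, limma adjusted p = 1.2e-05). The largest loss at this step was near the COPI gene Copg2. Its region at -7236 (chr6:30853997-30854547, inside Tsga13) read 15.8, 20.3 and 20.3 RPPM in C nB, 5.28 and 2.34 RPPM in C GCB, and 0.39, 0 and 0.156 RPPM in C BMPC. Here BMPC was at or below the floor (-4.07 from nB, SE 0.38, limma adjusted p = 4.6e-10), and a further Copg2 region at -39715 averaged 7.50, 6.34 and 0.512 RPPM (-2.49, SE 0.29).

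COPI genes gave 3 higher and 2 lower of 7 distal regions from nB to BMPC. In Copb1, the beta subunit, the region at +25860 (chr7:121371360-121372333) read 1.71, 0.565 and 1.49 RPPM in C nB, 3.08 and 4.22 RPPM in C GCB, and 16.0, 19.2 and 21.2 RPPM in C BMPC (3.16 from nB, SE 0.28, limma adjusted p = 1.7e-10). It climbed at each step without overlap. COPII genes gave 2 higher and 4 lower of 17. Sec16b at +13873 averaged 8.50, 4.29 and 1.08 RPPM in C nB, GCB and BMPC (-2.27, SE 0.32). Sec24c at -5944 (chr14:21501426-21502276) read 16.8, 18.1 and 14.5 RPPM in C nB, 2.2 and 1.87 RPPM in C GCB, and 20.5, 29.7 and 24 RPPM in C BMPC. The distance is counted from the start at the second Sec24c promoter region, and the distal region lies downstream of the main Sec24c promoter. That region was nearly shut in GCB and open on both sides of it (-2.52 from nB, SE 0.25, limma adjusted p = 4.3e-09, and 3.07 to BMPC, SE 0.25, limma adjusted p = 5.5e-11).

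Sec22 genes gave 3 higher and 4 lower of 8 distal regions, and p24 genes 1 higher and 3 lower of 15. Sec22c at +29596 read 40.2, 36.9 and 36.1 RPPM in C nB, 30.8 and 38.9 RPPM in C GCB, and 5.20, 4.93 and 3.89 RPPM in C BMPC. Accessibility was kept in GCB and was lower in BMPC (-2.78, SE 0.18), and Sec22c at +22296 averaged 10.3, 4.24 and 0.997 RPPM (-2.50, SE 0.30). The p24 gene Tmed6 repeated this shape at +2519, with 10.5, 9.61 and 10.4 RPPM in C nB, 11.9 and 13.6 RPPM in C GCB, and 0.52, 0 and 0.623 RPPM in C BMPC (-3.05, SE 0.25, limma adjusted p = 4.5e-11). At Tmed8 +6744 the means were 14.6, 13.4 and 1.75 RPPM (-2.55, SE 0.27). In each of these regions the GCB and nB ranges lay above that of BMPC.

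Among genes of entry into the ER, SRP genes gave 3 higher and 2 lower of 13 distal regions, Sec61 translocon genes 1 higher and 0 lower of 7 by limma, and signal peptidase genes 2 higher and 2 lower of 15. Sec11c, a catalytic subunit of signal peptidase, had the most accessible promoter per length of any named here (99.4 RPPM per kb). Its distal region at +2445 read 13.6, 9.23 and 8.75 RPPM in C nB, 9.68 and 10.8 RPPM in C GCB, and 53.7, 58.0 and 52.5 RPPM in C BMPC (2.30 from nB, SE 0.20, limma adjusted p = 1.8e-10). BMPC stood alone at this region. Spcs3, also of signal peptidase, averaged 0.803, 2.99 and 6.46 RPPM at +2974 (2.11, SE 0.34), whereas Spcs2 at +7774 peaked in GCB with 2.07, 13.1 and 3.09 RPPM (2.21 from nB, SE 0.34, and -1.79 to BMPC). Srp14, which binds the end of the SRP RNA, averaged 0.656, 1.36 and 7.89 RPPM at +9699, inside Eif2ak4 (2.45, SE 0.38), and Srp68 0.493, 0.688 and 5.17 RPPM at +970 (2.06, SE 0.31). Pdia5, a disulfide isomerase, averaged 0.331, 4.53 and 6.46 RPPM at +5526 and was called at the first step (2.05, SE 0.46) and from nB to BMPC (2.47, SE 0.41).

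The oligosaccharyltransferase genes gave 5 higher and 1 lower of 11 distal regions from nB to GCB (median 0.82), 2 higher and 1 lower from nB to BMPC, and 0 higher and 4 lower from GCB to BMPC. Stt3b encodes a catalytic subunit. Its region at -11944 (chr9:115231484-115232203, in no gene) read 1.22, 2.45 and 1.30 RPPM in C nB, 19.8 and 23.0 RPPM in C GCB, and 2.99, 1.82 and 2.18 RPPM in C BMPC (3.10 from nB, SE 0.28, limma adjusted p = 1.1e-09, and -2.76 to BMPC, SE 0.28, limma adjusted p = 4.4e-09). GCB stood alone, as it did in KO mice at 16.5, 21.6, 19.7 and 23.1 RPPM. Inside Stt3b, the region at +10794 read 7.80, 8.29 and 8.75 RPPM, then 34.7 and 42.2 RPPM, then 15.2, 16.8 and 21.5 RPPM. GCB was highest, and BMPC stayed above nB (1.01, SE 0.20, limma adjusted p = 7.3e-05). Upstream of Rpn1 at -14950 nB was highest instead, with 30.9, 22.6 and 25.1 RPPM in C nB, 10.1 and 5.62 RPPM in C GCB, and 7.93, 8.39 and 6.23 RPPM in C BMPC (-1.65 and -1.67 from nB), where GCB and BMPC overlapped. Of the other names, Sec14l1 at +35264 was the extreme case of opening in GCB. It read 0.487, 0.754 and 0.744 RPPM in C nB, 33.9 and 24.8 RPPM in C GCB, and 0.91, 0.182 and 0.623 RPPM in C BMPC (4.18 from nB and -4.28 to BMPC, SE 0.32 each). Elsewhere in Sec14l1 the region at +24389 opened in BMPC instead, averaging 0.618, 0.908 and 15.8 RPPM (3.37, SE 0.31), so 1 gene held regions of both kinds.

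Ssr1, which encodes the alpha subunit of TRAP, had the most regions, 11 on chromosome 13. TRAP genes as a group gave 4 higher and 0 lower of 15 distal regions from nB to GCB and 5 higher and 1 lower from nB to BMPC by limma. Most of these distal regions and calls belonged to Ssr1, so the group counts rest largely on that gene. The Ssr1 promoter averaged 55.4, 36.0 and 66.9 RPPM in C nB, GCB and BMPC and was not called between nB and BMPC. The distal regions split by position. At +5266 accessibility averaged 0.188, 2.24 and 5.01 RPPM (2.36 from nB to BMPC, SE 0.40). Farther on, at the end of the gene and beyond it, +26971 averaged 7.74, 30.7 and 19.5 RPPM, +28474 averaged 0.949, 13.1 and 3.11 RPPM and +29738 averaged 0.911, 5.20 and 3.77 RPPM. These neighbors were each highest in GCB, with log2 fold changes from nB of 1.88, 2.85 and 1.71. At +30173 the means were 12.9, 13.4 and 17.8 RPPM with no call. At +35200 the means were 13.4, 22.3 and 2.22 RPPM, which fell from nB to BMPC by 2.19 (SE 0.21, limma adjusted p = 6.5e-10) on the log2 scale. The call at +28474 from nB to BMPC (1.03) was lost without the second or the third C BMPC library (0.95 and 0.86).

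The same comparisons in KO mice, made on other libraries, gave similar counts. From nB to BMPC, 12 promoters rose and 2 fell and 28 distal regions rose and 14 fell (17.3% of all promoters and 39% of all distal regions were called in either direction). From nB to GCB the counts were 6 and 2 promoters and 30 and 5 distal regions (17.6% and 27.4%), and from GCB to BMPC 9 and 1 promoters and 14 and 28 distal regions (18.6% and 34%). TMM scaling turned the promoter split from nB to GCB into 6 and 5, and quantile normalization the distal split into 16 and 9. From nB to BMPC, 11 promoters were called the same way in both genotypes, 100% of the C calls and 78.6% of the KO calls, and 37 distal regions, 77.1% and 88.1%. From nB to GCB these were 6 promoters (60% and 75%) and 24 distal regions (88.9% and 68.6%), and from GCB to BMPC 8 promoters (80% and 80%) and 31 distal regions (79.5% and 73.8%). Over all promoters the shared calls made up 81.8% of the C calls and 83.2% of the KO calls from nB to BMPC, 75.9% and 68.4% from nB to GCB, and 71.8% and 73.4% from GCB to BMPC. Over all distal regions they made up 80.1% and 86.4%, 76.3% and 65.5%, and 77.7% and 74.1% in the same order. No member was called in opposite directions. In KO mice Sec24d averaged 18.9 ± 3.28 RPPM (SD, n = 2) in nB, 61.9 ± 5.90 RPPM (SD, n = 4) in GCB and 99.8 ± 0.612 RPPM (SD, n = 2) in BMPC. Sec22a at +44171 read 0.494 and 0.394 RPPM in KO nB and 15.9 and 12.1 RPPM in KO BMPC, below the 18.2 to 24.6 RPPM of C BMPC, and this genotype difference was not called (-0.55, SE 0.33).

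Between genotypes, 1 of 193 members was called, in GCB. Of all promoters and distal regions, 0.0209% and 0.0314% were called in GCB, 0.0698% and 0.0941% in BMPC and 0% and 0% in nB. At an unadjusted limma p under 0.05 the members numbered 3 in nB, all lower in KO, 26 in GCB (20 higher and 6 lower) and 14 in BMPC (11 higher and 3 lower). These are 1.55%, 13.5% and 7.25% of the members, beside 1.67%, 11.8% and 9.55% of all regions. By edgeR's likelihood ratio test, the members called were 0 in nB, 0 in GCB and 1 in BMPC, where 0.0151%, 0.0181% and 2.53% of all regions were called. By its quasi-likelihood test they were again 0, 0 and 1, beside 0.0106%, 0.00151% and 1.81% of all regions. The split by direction depended on the test. At an unadjusted p under 0.05 the likelihood ratio test gave 3 higher and 5 lower in nB, 8 and 6 in GCB and 13 and 18 in BMPC, and the quasi-likelihood test 0 and 5, 8 and 6, and 12 and 17. In BMPC these came to 16.1% and 15% of the members, beside 21.1% and 19.3% of all regions.

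The called member lay near Ssr1 at -15677 (chr13:38101737-38102908), in an intron of Cage1. It read 11.4 and 11.7 RPPM in C GCB and 27.5, 24.2, 23.2 and 25.9 RPPM in KO GCB. All KO pools lay above both C pools, and the C pools were also below the nB libraries (16.3, 20.5 and 19.9 RPPM in C, 22.2 and 21.3 RPPM in KO) and the BMPC libraries (19.9, 26.5 and 21.0 RPPM in C, 27.1 and 23.7 RPPM in KO). The log2 fold change was 1.06 (SE 0.16, limma adjusted p = 0.0056). The C values rest on 25 to 26 reads each, and the call was lost without either C pool, with a fit of the compared groups only, and by edgeR (quasi-likelihood adjusted p = 0.19, likelihood ratio adjusted p = 0.048). Against the genotype difference in nB the interaction was 0.86 (SE 0.24, limma adjusted p = 0.70).

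In BMPC the strongest genotype difference was at Copb1 +25860, the region that opened from nB to BMPC. It read 16.0, 19.2 and 21.2 RPPM in C BMPC, from 105 to 136 reads, and 7.53 and 6.16 RPPM in KO BMPC, from 62 and 33 reads. The ranges did not overlap, and both KO libraries remained above every nB library (at most 1.71 RPPM). By limma the log2 fold change of -1.33 (SE 0.31, adjusted p = 0.038) was not called. It was called by edgeR's quasi-likelihood test (-1.50, adjusted p = 5.3e-06) and likelihood ratio test (-1.50, adjusted p = 1.6e-08), by limma on the compared groups only (adjusted p = 0.0038), and with a pseudocount of 5 RPPM (-1.0, limma adjusted p = 0.0021). In GCB the region read 3.08 and 4.22 RPPM in C and 6.61, 3.82, 4.38 and 4.89 RPPM in KO, and in nB 1.71, 0.565 and 1.49 RPPM in C and 0.494 and 0.197 RPPM in KO. The interaction of BMPC against GCB was -1.67 (SE 0.43, limma adjusted p = 0.19) and that of BMPC against nB -0.62 (SE 0.44, limma adjusted p = 1.0).

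**Figure D4:**
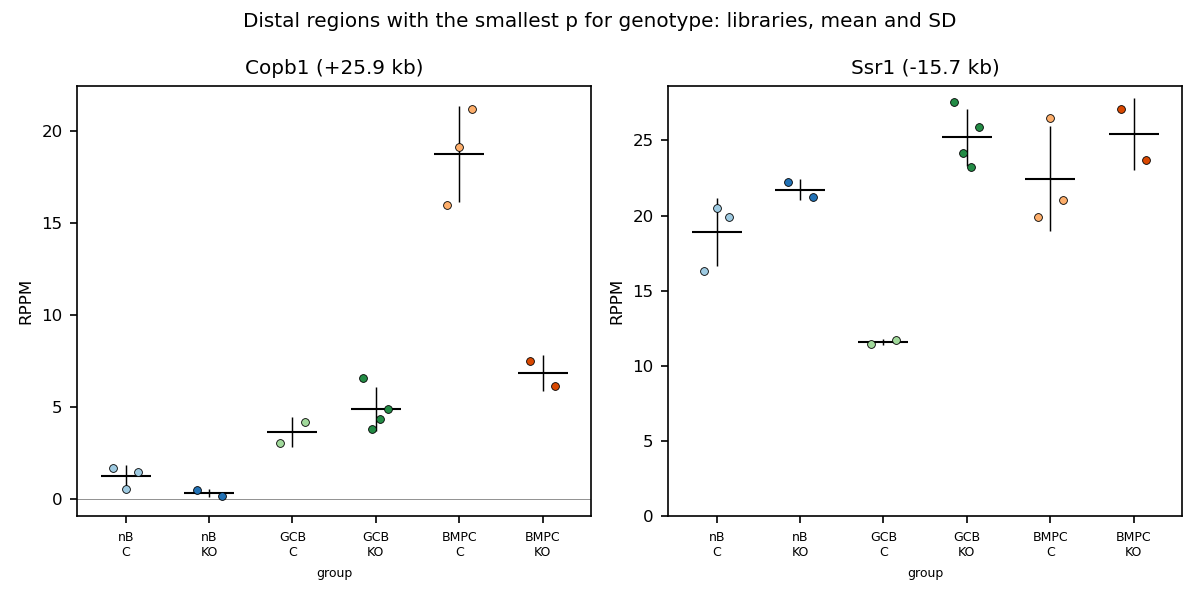
Accessibility in RPPM (vertical axis, linear) in each library of the 6 groups at Copb1 +25860 and Ssr1 -15677, with points for libraries and bars for mean and SD. At Copb1 the 2 KO BMPC libraries (7.53 and 6.16) lie below the 3 C BMPC libraries, and at Ssr1 the 2 C GCB libraries (11.4 and 11.7) lie below all others.

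The next smallest p-values fell short. In GCB these were Srp14 at -10661 with 17.2 and 13.6 RPPM in C and 28.6, 21.0, 22.8 and 27.3 RPPM in KO (0.66, SE 0.16, limma adjusted p = 0.066), Sec22c at +27698 (1.08, limma adjusted p = 0.14), the Pdia6 promoter (-0.42, limma adjusted p = 0.17) and Sec14l5 at +16907 (0.67, limma adjusted p = 0.20). In BMPC they were Ssr1 at +35200 (0.70) and Stt3b at -11944 (0.84), each with a limma adjusted p of 0.19, and Rpn1 at -18980 (0.92, limma adjusted p = 0.25) and -14950 (0.64, limma adjusted p = 0.27). In nB, Copb1 at +25860 (-0.71), Sec61a1 at -30508 (-0.79), Spcs3 at +36210 (-0.61), the Copz2 promoter (-0.59) and Stt3b at +10794 (-0.39) each had a limma adjusted p of 1.0. The interactions of genotype with cell type gave 0 called members by limma and by both edgeR tests in each of 3 comparisons. Of all regions, limma called 0% in each, the likelihood ratio test 0.267% (BMPC against nB), 0.113% (BMPC against GCB) and 0.00604% (GCB against nB), and the quasi-likelihood test 0.074%, 0.0287% and 0%. At an unadjusted limma p under 0.05 the members numbered 2, 13 and 13 in the same order (1.04%, 6.74% and 6.74%, beside 5.24%, 8.32% and 6.21% of all regions). The edgeR counts were 13, 15 and 11 by the likelihood ratio test and 11, 12 and 10 by the quasi-likelihood test.

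Ssr4, another TRAP subunit, is the X-linked member, and male and female libraries can be set side by side there. Its region at +11366, inside Pdzd4, read 4.39, 5.46 and 4.65 RPPM in male C nB, 3.96 and 2.81 RPPM in C GCB pools, and 4.81, 4.74 and 4.2 RPPM in female C BMPC. The ranges of nB and BMPC overlapped, and the log2 fold change of -0.06 (SE 0.25) was not called.

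Motif letters were counted in the 300 bases around the middle of each promoter region, on both strands, beside the same count in the 14308 windows of all promoters on named chromosomes. ACGTG, the core of sites for Xbp1 and related factors, lay in 46.5% of member windows and 23.5% of all windows. For TGACGT, which overlaps ACGTG in part of its matches, the shares were 21.1% and 8.33%, and for CCACG 59.2% and 47.5%. Over annotated starts alone ACGTG lay in 52.5% of 59 windows and in 24.9% of all. Shares of CCAAT (28.2% and 28.6%), GGAAGT (23.9% and 25.3%), GAAAC (42.3% and 40%) and CAGCTG (14.1% and 17.6%) were closer, and median GC content was 63.7% and 63.3%. In these windows, 1 of the 10 promoters that rose from nB to BMPC held ACGTG (Sec1) and 7 held GAAAC, and the ACGTG of the Sec24d promoter printed above lies outside its window. The windows of these 10 promoters had a lower median GC content, 50.2%. All distal windows, with a median GC content of 48%, held GAAAC in 58.9% and ACGTG in 17.2%. The part of base composition in these counts was not tested. The ER stress element, CCAAT followed 9 bases on by CCACG, occurred in 1 of 71 member windows (1.41%, against 0.0629% of all), and it is shown because it is the only full match.
Pdia6, chr12:17273297-17273315 (plus strand): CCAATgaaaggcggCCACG
This Pdia6 promoter, of a disulfide isomerase, averaged 55.2 ± 5.08 RPPM (SD, n = 3) in C nB, 40.2 ± 2.75 RPPM (SD, n = 2) in C GCB and 52.9 ± 2.23 RPPM (SD, n = 3) in C BMPC and was not called. These shares carry no test.

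Other genes of the same route that the symbol rule leaves out, 42 of 46 listed with a region, gave 45 promoter and 117 distal regions. From nB to BMPC in C mice 3 of their promoters rose and 1 fell (6.67% and 2.22%, against 11.2% and 6.41% of all promoters, with a median log2 fold change of 0.16). Of their distal regions 48 rose and 17 fell (41% and 14.5%, against 20.2% and 21.8% of all distal regions, with medians of 0.70 and 0.01). From nB to GCB the counts were 4 and 3 promoters (8.89% and 6.67%, against 8.88% and 6.99%) and 22 and 6 distal regions (18.8% and 5.13%, against 15.2% and 8.33%). From GCB to BMPC they were 8 and 3 promoters (17.8% and 6.67%, against 11.7% and 7.33%) and 34 and 17 distal regions (29.1% and 14.5%, against 11.7% and 20.7%). By limma 0 were called between genotypes in any cell type. The 4 called promoters, named after their values were seen, include Kdelr3, a receptor that returns ER proteins, at 0.493 ± 0.277 RPPM (SD, n = 3) in C nB and 33.7 ± 3.25 RPPM (SD, n = 3) in C BMPC, with C GCB between at 7.28 RPPM (4.55 from nB to BMPC, limma adjusted p = 3.6e-14). Txndc5 at -2469, near a disulfide isomerase gene, averaged 7.18, 21.9 and 56.8 RPPM (2.85), Lman1 at -865, a cargo receptor gene, 0.555, 8.67 and 15.3 RPPM (3.39), and Tusc3, a subunit of the oligosaccharyltransferase, fell from 73.1 to 32.9 RPPM (-1.13, limma adjusted p = 2.5e-09).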

How the data were processed

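ATAC-seq reads from 16 libraries were mapped to mm9 by the authors with Bowtie and regions called in each sample with MACS2 (submitters' notes give versions 1.1.1 and 2.1.0.20140616, with Picard 1.127). The deposited RPM values, called RPPM here, give, for each peak in the union over samples, its reads per 1000000 reads in peaks. All values (100%) were whole multiples of 1 read, within 0.001, so whole reads were recovered. The authors' columns of log2 fold changes, p-values and FDR (edgeR 3.12.1) for 9 comparisons were not used.

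Groups came from the labels. In R 4.3.3, limma 3.58.1 was fitted to log2(RPPM + 1) with a mean per group for 6 groups, a variance trend and Benjamini-Hochberg adjustment over all 66177 regions; calls needed an adjusted p of at most 0.01 and 2-fold. Alternatives included edgeR 4.0.16 on recovered reads, and scripts were tested on simulated data. Members, roles and lists were chosen with earlier results of these data known. Named regions were, from nB to BMPC in C, all called promoters and the 20 called distal regions with the largest change; for the other 2 steps the 5 largest called each way; for genotype, called regions and the 5 smallest p; the highest and lowest promoter per kb of each role; the gene with most regions; and X-linked members. Role and mapping tables used Python 3.11.15, pandas 2.3.3, numpy 2.4.6 and matplotlib 3.10.9.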

Additional observations from a re-analysis of the deposited data

Results flagged for a closer look

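In the 4 KO GCB libraries, 6 of 71 named regions had a library far from the other 3 by Dixon's test. For values on a continuous scale chance gives about 1 in 20, a rate that need not hold at counts of a few reads. The Sec14l1 promoter read 23.8 RPPM in the fourth library against 29.7 to 30.7 RPPM in the others. Sec14l1 at +3758 read 2.2 RPPM in the first library against 4.19 to 4.46 RPPM, on 2 reads against 6 to 10. Ssr1 at +49676 read 0 RPPM in the fourth against 2.19 to 2.55 RPPM, and at +29738 it read 4.46 RPPM in the second against 5.51 to 5.70 RPPM. Pdia5 at +5526 read 0 RPPM in the second library against 3.07 to 3.50 RPPM, and Srp14 at +9699 read 0 RPPM in the third against 1.91 to 2.2 RPPM. Where a library read 0, the others held few reads: 2 to 5 at Ssr1 +49676, 3 to 7 at Pdia5 and 2 to 3 at Srp14.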

How the results depend on the processing

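With a pseudocount of 5 RPPM, called promoters in C mice fell to 3 (nB to GCB), 6 (nB to BMPC) and 6 (GCB to BMPC), and distal regions to 11, 17 and 19. In KO mice promoters fell to 3, 8 and 5 and distal regions to 12, 20 and 17. Quantile normalization left 6 promoters from nB to GCB in C mice. The single GCB call between genotypes was lost (0 calls) with a pseudocount of 5 RPPM, with the compared groups only and with both edgeR tests, settings under which 1 member was called in BMPC. At an adjusted p of at most 0.05 BMPC also had 1. Leaving out 1 library in turn gave 4 to 10 promoters from nB to GCB in C mice (4 without the first C GCB library), 23 to 36 distal regions from nB to GCB in KO mice (23 without the second KO nB library), 8 to 10 promoters from nB to BMPC in KO mice (8 and 9 without the first and second KO BMPC library), 25 to 44 distal regions from GCB to BMPC in KO mice (25 without the second KO BMPC library) and 0 to 1 GCB calls between genotypes (0 without either C library). Among recomputed values of named regions, 1000 kept direction and call, 33 lost the call, 4 gained it and 2 changed sign. Both sign changes were at Ssr4 +11366 from nB to BMPC, with 0.011 under quantile normalization and -0.12 to 0.016 when a library was left out (0.016 without the second C nB library). The GCB pool names F2 and M1 are shared by the genotypes. Deviations from the group mean gave r = 0.036 and 0.064 for libraries of the same pool, against -0.064 to 0.040 for other pairs. With 2 C libraries the deviations of one mirror those of the other, so this comparison cannot decide whether pools are paired. Pools were not treated as paired in the main fit, and with the pool name as the replicate block the GCB count was 1. Depth limits GCB most, where the floor of 3 reads reaches 3.30 RPPM. The cause of these changes was not tested.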
